A study of Mus musculus with 6 samples.

Results

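The 10 genes described here are Ltf, Camp, Ngp, Lcn2, Chil3, Fcnb, Pglyrp1, Padi4, Retnlg and Ly6g, which encode specific granule proteins and other products of later neutrophil maturation. They were named as a list and found by gene symbol among the 22824 rows of each library; all 10 had a row and all 10 passed the filter for testing. The series compared 3 OE with 3 Ctrl libraries of mouse femur RNA, to examine what extra Wnt7b does to gene expression in bone. OE mice were C57BL/6 animals carrying 9.6kb DMP1-Cre and R26-Wnt7b, described as homozygotes. Ctrl mice were C57BL/6 littermates carrying R26-Wnt7b, which both groups share, without a Cre named. The Dmp1 promoter is active in osteocytes and mature osteoblasts, and is not known as a promoter of neutrophils. Total RNA was sequenced as read pairs, and the labels give neither age nor sex. Nothing in them says that each library came from its own animal; the p-values therefore reflect how far these samples spread, and that spread may be technical.

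Wnt7b itself stood at 2.49, 0.661 and 0.295 FPKM in OE 1, 2 and 3, against 0.909, 0.00833 and 0 (as listed) in Ctrl 1, 2 and 3. The first Ctrl library thus held more Wnt7b than OE 2 and OE 3, against its label, and is called the library labelled Ctrl 1 from here on. It also carried osteoblast markers at the OE level: the 8 markers summed to 6535, 6308 and 4087 FPKM in OE 1, 2 and 3, against 5701, 444 and 359 in the libraries labelled Ctrl 1, 2 and 3. Values are FPKM: a gene's fragments divided by transcript length and by the mapped fragments of the library. The depth behind them is unknown. Judged by the step size of weakly expressed genes against that of OE 2, which was set to 1, the other libraries were 1.02 to 1.18 times as deep, and FPKM totals ran from 596413 to 775942.

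Neutrophils mature in the marrow through stages that fill different granules in order. Promyelocytes make primary (azurophil) granules with Mpo, Elane, Prtn3 and Ctsg; myelocytes and metamyelocytes then make specific granules with lactoferrin and cathelicidin; band and segmented cells acquire gelatinase granules and surface receptors. The transcription factor C/EBP epsilon, encoded by Cebpe, is required in mice for expression of specific granule genes. The ratio of a later gene to Mpo therefore serves as a rough guide to how far the neutrophils in a sample have matured. In whole tissue RNA, fewer cells of a type and less RNA per cell cannot be told apart. The femurs are labelled as cleared of marrow, yet the 10 genes were abundant in all 6 libraries. Their summed share of FPKM was 4.60%, 5.45% and 2.92% in OE 1, 2 and 3, against 6.05%, 5.76% and 5.34% in the libraries labelled Ctrl 1, 2 and 3.

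Because C/EBP factors are known regulators of these genes, the 250 bases before each RefSeq start (GRCm38.p6) were searched on both strands for the 8-letter C/EBP motif TTGCNNAA. The motif was present before 6 of the 10 genes (Fcnb, Lcn2, Ltf, Ly6g, Ngp and Retnlg) and before 0 of the 5 primary granule genes with a window. Among all 32851 windows of that length, 9.56% held it, and among 27025 genes 10.8% did. The stretches below are shown because they hold the motif; they read 5′ to 3′ on the strand of the gene, stop short of annotated exons or are limited to 30 bases, and capitals mark each match on either strand. They are Ltf chr9:111019042-111019270 (plus strand), Ngp chr9:110419558-110419746 (plus), Fcnb chr2:28084886-28085128 (minus), Retnlg chr16:48872358-48872607 (plus) and Lcn2 chr2:32387937-32387966 (minus, inside an exon of a longer Lcn2 transcript).
Ltf: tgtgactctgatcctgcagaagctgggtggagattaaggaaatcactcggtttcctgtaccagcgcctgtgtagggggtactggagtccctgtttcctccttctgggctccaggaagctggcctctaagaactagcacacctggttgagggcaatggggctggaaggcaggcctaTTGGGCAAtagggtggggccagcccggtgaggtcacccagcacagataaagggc
Ngp: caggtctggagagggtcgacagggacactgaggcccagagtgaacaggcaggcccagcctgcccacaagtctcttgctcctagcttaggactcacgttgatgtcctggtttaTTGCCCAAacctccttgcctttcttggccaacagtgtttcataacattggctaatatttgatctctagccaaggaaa
Fcnb: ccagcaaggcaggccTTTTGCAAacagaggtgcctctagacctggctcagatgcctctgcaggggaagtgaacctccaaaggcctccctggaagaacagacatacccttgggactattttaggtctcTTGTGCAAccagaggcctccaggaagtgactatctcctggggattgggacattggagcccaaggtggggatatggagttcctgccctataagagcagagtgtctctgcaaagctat
Retnlg: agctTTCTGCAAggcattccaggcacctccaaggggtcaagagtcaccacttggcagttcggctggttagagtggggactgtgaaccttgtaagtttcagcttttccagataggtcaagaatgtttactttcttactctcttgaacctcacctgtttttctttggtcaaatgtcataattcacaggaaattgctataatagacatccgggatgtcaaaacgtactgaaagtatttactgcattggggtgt
Lcn2: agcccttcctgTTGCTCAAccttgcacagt
The match lies 75 bases before the start in Ltf, 138 in Ngp, 235 and 123 in Fcnb, 246 in Retnlg and 216 in Lcn2. Ngp has a further match 11 bases before its start, outside the printed stretch, and Ly6g has 1 at 232 in the first of its windows. A match is a description of these letters and was not tested for binding.

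The other 8 motifs were searched in the same windows. GAGGAA, the core read by PU.1 (encoded by Spi1), lay before 4 of the 10 genes (Lcn2, Ltf, Ly6g and Pglyrp1) and 4 of the 5 primary granule genes, against 23.3% of all windows. CCAAT lay before 6 of the 10 and 33.8% of windows, TATAAA before 2 of the 10 and 12.4% of windows, and AAATCAC, a GFI1 core, before Ltf alone of the 10 and 2.75% of windows. AACNG, the MYB core, lay before all 10 and 74.2% of windows. TGTGGT, the RUNX core, lay before none of the 10 and 14.0% of windows, and the 9-letter PU.1 motif AGAGGAAGT before none of the 10 and 0.798% of windows. A looser C/EBP motif, TTNCNNAA, which includes every TTGCNNAA match, lay before 7 of the 10 and 36.8% of windows. Of all 27025 genes, counted by gene as the 10 are, 25.9% held GAGGAA, 37.5% CCAAT, 14.3% TATAAA and 3.13% AAATCAC. The gene shares were 76.8% for AACNG, 15.9% for TGTGGT, 0.940% for AGAGGAAGT and 40.3% for TTNCNNAA.

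None of the 10 genes passed the test of OE against Ctrl. limma on log2(FPKM + 1), with Benjamini-Hochberg adjustment over 12177 genes, called 0 of the 10, as it called 0.0% of all genes at an adjusted p under 0.05. Before adjustment, 999 genes had p under 0.05 (502 higher and 497 lower in OE), and limma without a trend also called 0 genes, with 996 at that unadjusted level. All 10 differences (OE minus Ctrl) were below 0, with a median of -0.61, where the median of all genes tested was -0.04. The lower 5% of all genes tested lay below -0.49, and 7 of the 10 lay beyond that value. The groups overlapped for every member: 0 of the 10 had all OE libraries below all Ctrl libraries, a pattern that 8.97% of all genes showed.

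**Figure D1:**
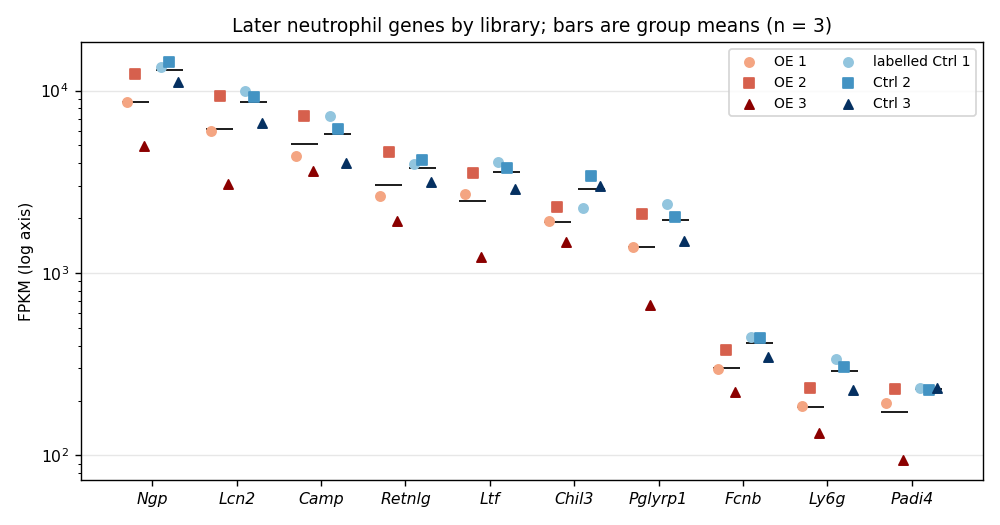
FPKM of the 10 genes in each library on a log axis, OE left of Ctrl within each gene, with bars at the group means (n = 3 each) and genes ordered by mean level. OE 3 is the lowest point of every gene, and OE 2 stands among the Ctrl points for most.

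The order of the libraries was nearly the same from gene to gene. OE 3 was the lowest of the 6 libraries for all 10 genes, and OE 2 was the highest OE library for all 10. OE 1 and OE 3 lay below every Ctrl library for 9 of the 10 genes, all but Camp, where 22.6% of all genes have OE 1 and OE 3 below every Ctrl library; leaving out OE 2 was a choice made among several, and this count is a description. OE 2 exceeded Ctrl 3 for 8 of the 10. The highest library was the one labelled Ctrl 1 for 6 genes, Ctrl 2 for Ngp and Chil3, and OE 2 for Camp and Retnlg. The median difference of the 10 was -0.19 with OE 3 left out, and -0.51 with the library labelled Ctrl 1 left out.

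Ltf, Camp, Ngp and Lcn2 encode specific granule proteins. Ltf encodes lactoferrin, an iron-binding antimicrobial protein, and lies on chromosome 9 at 111019271 to 111042767 (GRCm38, GENCODE M21, plus strand, ENSMUSG00000032496), with up to 17 exons. It stood at 2698, 3518 and 1219.7 FPKM in OE 1, 2 and 3, against 4083, 3744 and 2892 FPKM in the libraries labelled Ctrl 1, 2 and 3. OE 1 and OE 3 were below every Ctrl library, while OE 2 lay between Ctrl 3 and Ctrl 2. The means were 2478 ± 1165 FPKM in OE and 3573 ± 614 FPKM in Ctrl (SD, n = 3 each), a log2 difference of -0.64 (SE 0.43; limma adjusted p = 0.600). OE 3 held 36.0% of the mean of the other 5 libraries.

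Camp encodes the cathelicidin precursor, whose cleaved peptide kills bacteria (chromosome 9, 109847379 to 109849617, minus strand, ENSMUSG00000038357, 4 exons). Its values were 4392, 7282 and 3641 FPKM in OE 1, 2 and 3, against 7229.9, 6147 and 4006 FPKM in the libraries labelled Ctrl 1, 2 and 3. The groups were interleaved: OE 2 was the highest library and OE 1 exceeded Ctrl 3. Camp averaged 5105 ± 1922 FPKM in OE and 5794 ± 1641 FPKM in Ctrl (SD, n = 3 each). Its difference of -0.20 (SE 0.40; limma adjusted p = 0.863) was the smallest of the 10, and it was 0.01 with OE 3 left out and -0.02 with the library labelled Ctrl 1 left out.

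Ngp encodes neutrophilic granule protein, a cystatin-related protein of mice (chromosome 9, 110419747 to 110423012, plus strand, ENSMUSG00000032484, 4 exons). It was the most abundant of the 10 in every library, at 8607, 12327 and 4990.1 FPKM in OE 1, 2 and 3, against 13426, 14299 and 11129 FPKM in the libraries labelled Ctrl 1, 2 and 3. OE 2 exceeded Ctrl 3 only, and the other OE libraries lay below all Ctrl libraries. Means of 8641 ± 3669 FPKM in OE and 12952 ± 1637 FPKM in Ctrl (SD, n = 3 each) gave a difference of -0.67 (SE 0.43; limma adjusted p = 0.588). Camp, Ngp and Ltf lie within 1.20 Mb of each other on chromosome 9, but Camp did not follow the other two closely. Camp over Ngp was 0.510, 0.591 and 0.730 in OE 1, 2 and 3, against 0.538, 0.430 and 0.360 in the libraries labelled Ctrl 1, 2 and 3.

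Lcn2 encodes lipocalin 2, which binds bacterial iron carriers (chromosome 2, 32384633 to 32388252, minus strand, ENSMUSG00000026822, up to 7 exons). It held 5969, 9347 and 3061 FPKM in OE 1, 2 and 3, against 9979.7, 9249 and 6653 FPKM in the libraries labelled Ctrl 1, 2 and 3. OE 2 was within the Ctrl range and the other OE libraries were below it. The group means were 6126 ± 3146 FPKM in OE and 8627 ± 1748 FPKM in Ctrl (SD, n = 3 each), with a difference of -0.62 (SE 0.47; limma adjusted p = 0.640).

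Chil3, Fcnb and Pglyrp1 encode secreted lectin-like and pattern recognition proteins of the neutrophil lineage. Chil3 encodes the chitinase-like protein Ym1, which macrophages can also make (chromosome 3, 106147554 to 106167564, minus strand, ENSMUSG00000040809, up to 11 exons). Its values were 1927, 2305 and 1483 FPKM in OE 1, 2 and 3, against 2281, 3419 and 2997 FPKM in the libraries labelled Ctrl 1, 2 and 3. All OE libraries were below Ctrl 2 and Ctrl 3, and only OE 2 exceeded the library labelled Ctrl 1. Chil3 averaged 1905 ± 412 FPKM in OE and 2899 ± 575 FPKM in Ctrl (SD, n = 3 each), a difference of -0.61 (SE 0.29; limma adjusted p = 0.554). Without the library labelled Ctrl 1 the difference was -0.77 (limma adjusted p = 0.355). All OE libraries then lay below all Ctrl libraries, a pattern of 1 of the 10 genes and of 18.6% of all genes.

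Fcnb encodes ficolin B, a lectin that starts the complement lectin pathway (chromosome 2, 28076378 to 28084885, minus strand, ENSMUSG00000026835, up to 9 exons). It stood at 297, 379.8 and 223 FPKM in OE 1, 2 and 3, against 448, 441 and 346 FPKM in the libraries labelled Ctrl 1, 2 and 3. OE 2 and Ctrl 3 were the pair that made the groups overlap. Means were 299.7 ± 78.5 FPKM in OE and 412 ± 56.7 FPKM in Ctrl (SD, n = 3 each), with a difference of -0.48 (SE 0.24; limma adjusted p = 0.561).

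Pglyrp1 encodes a peptidoglycan recognition protein stored in granules (chromosome 7, 18871331 to 18890459, plus strand, ENSMUSG00000030413, up to 4 exons). It was measured at 1381, 2104 and 665 FPKM in OE 1, 2 and 3, against 2377, 2015 and 1488 FPKM in the libraries labelled Ctrl 1, 2 and 3. OE 2 lay within the Ctrl range, OE 1 just below it, and OE 3 at 35.5% of the mean of the other 5 libraries, the lowest share among the 10. Pglyrp1 averaged 1383 ± 719.7 FPKM in OE and 1960.3 ± 447 FPKM in Ctrl (SD, n = 3 each), a difference of -0.63 (SE 0.45; limma adjusted p = 0.613).

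Retnlg, Ly6g and Padi4 mark later cells. Retnlg encodes resistin-like gamma, a small secreted protein of mouse neutrophils (chromosome 16, 48872621 to 48874496, plus strand, ENSMUSG00000022651, 4 exons). It held 2633, 4589.5 and 1932 FPKM in OE 1, 2 and 3, against 3977, 4171 and 3148 FPKM in the libraries labelled Ctrl 1, 2 and 3. OE 2 was the highest of all 6 libraries, and OE 1 and OE 3 were the lowest. The means were 3051 ± 1377 FPKM in OE and 3766 ± 544 FPKM in Ctrl (SD, n = 3 each), a difference of -0.39 (SE 0.38; limma adjusted p = 0.708).

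Ly6g encodes the membrane-anchored antigen by which mouse neutrophils are sorted (chromosome 15, 75155240 to 75159126, plus strand, ENSMUSG00000022582, up to 4 exons). Its values were 188, 235 and 133 FPKM in OE 1, 2 and 3, against 339.8, 304 and 229.6 FPKM in the libraries labelled Ctrl 1, 2 and 3. OE 2 and Ctrl 3 overlapped by a few FPKM, and otherwise OE lay below Ctrl. Ly6g averaged 185 ± 51.4 FPKM in OE and 291 ± 56.3 FPKM in Ctrl (SD, n = 3 each), a difference of -0.67 (SE 0.26). The limma p was 0.0395 before and 0.554 after Benjamini-Hochberg adjustment. Ly6g was the only one of the 10 with an unadjusted p under 0.05.

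Padi4 encodes a peptidylarginine deiminase that converts histone arginine to citrulline when neutrophils release chromatin traps (chromosome 4, 140745865 to 140774236, minus strand, ENSMUSG00000025330, up to 16 exons). It stood at 194, 230.3 and 94.6 FPKM in OE 1, 2 and 3, against 235, 229 and 233 FPKM in the libraries labelled Ctrl 1, 2 and 3. The Ctrl libraries were nearly equal, OE 2 matched them, and OE 3 stood far below. Means of 173 ± 70.3 FPKM in OE and 233 ± 3.09 FPKM in Ctrl (SD, n = 3 each) gave a difference of -0.52 (SE 0.33; limma adjusted p = 0.584).

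Ranked by mean FPKM over the 6 libraries, the order was Ngp at 10797, Lcn2 at 7376, Camp at 5449.6, Retnlg at 3408, Ltf at 3026, Chil3 at 2402, Pglyrp1 at 1672, Fcnb at 356, Ly6g at 238 and Padi4 at 203. Ngp and Fcnb each held the same rank in all 6 libraries. Retnlg exceeded Ltf, Ltf exceeded Chil3, and Ly6g exceeded Padi4 in 4 of 6 libraries only. The order of these neighbours thus changed between libraries, and it was not tested.

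**Figure D2:**
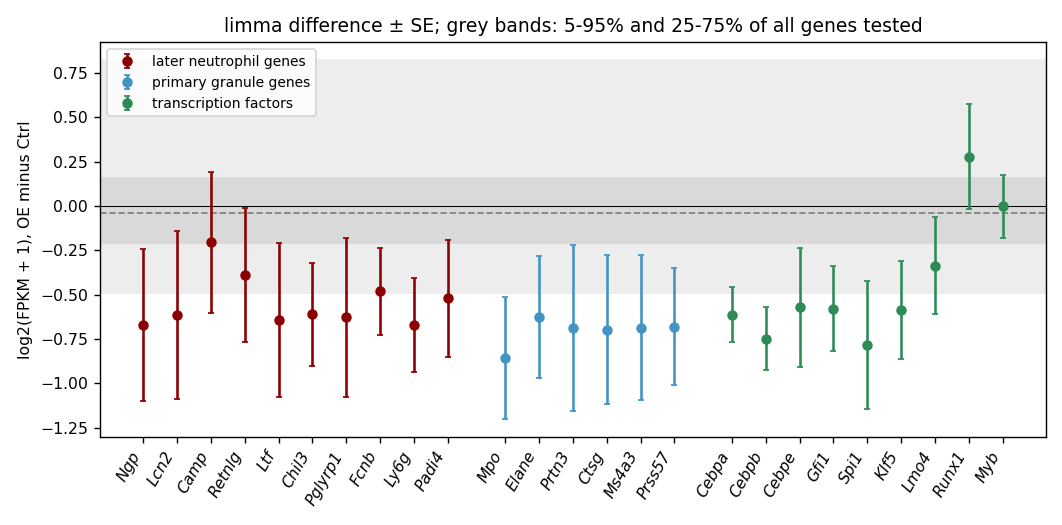
limma difference in log2(FPKM + 1), OE minus Ctrl, with bars of 1 SE, for the 10 later neutrophil genes, 6 primary granule genes and 9 transcription factors. The grey bands hold the middle of all 12177 genes tested, and most of the plotted genes lie below the band of the middle 50% with none past the adjusted threshold.

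Neutrophil genes make up a large share of the FPKM to which each library is scaled. S100a8 and S100a9 and the 24 other genes of the further later neutrophil list summed to 14.4%, 17.7% and 7.96% of FPKM in OE 1, 2 and 3, against 14.9%, 14.5% and 13.003% in the libraries labelled Ctrl 1, 2 and 3. With FPKM rescaled to the total without the neutrophil lists, the median difference of the 10 was -0.56, and Ngp, Chil3, Fcnb and Ly6g, 4 of the 10, had all OE libraries below all Ctrl libraries, against 9.41% of all genes. None of the 10 was called by limma at that scaling either (adjusted p 0.575 to 0.893).

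The 6 genes listed here as primary granule genes, taken to mark the preceding stage, behaved much like the 10. Mpo, which encodes myeloperoxidase, stood at 2123, 2906 and 1311 FPKM in OE 1, 2 and 3, against 3591, 3941 and 3388 FPKM in the libraries labelled Ctrl 1, 2 and 3. All OE libraries lay below all Ctrl libraries for Mpo, alone among the 6, a pattern that 8.97% of all genes showed. Mpo averaged 2113 ± 798 FPKM in OE and 3640.1 ± 280.1 FPKM in Ctrl (SD, n = 3 each), a difference of -0.86 (SE 0.34; limma adjusted p = 0.554). Elane, the neutrophil elastase gene, differed by -0.62 (SE 0.34), Prtn3 (proteinase 3) by -0.69 (SE 0.47), Ctsg (cathepsin G) by -0.70 (SE 0.42), Ms4a3 by -0.69 (SE 0.41) and Prss57 by -0.68 (SE 0.33). None of the 6 passed the test (limma adjusted p 0.554 to 0.602), and their median of -0.69 stood beside -0.61 for the 10 later genes.

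Set against Mpo, the later genes were on the higher side in OE. Each difference here is in log2 of the ratio of FPKM + 1, OE minus Ctrl, and equals the gene's own difference minus that of Mpo. All 10 were above 0, from 0.18 to 0.65 with a median of 0.24, and all genes tested had a median of 0.81. That all 10 were above 0 follows from Mpo, which fell further in level than any of them. limma called 0 of the 10 in this fit, where it called 9.11% of 12176 genes (Benjamini-Hochberg adjusted p under 0.05). For 5 of the 10 all OE ratios exceeded all Ctrl ratios, as they did for 66.5% of all genes, so a ratio to Mpo of this kind did not set these genes apart from the rest. Every gene shares the same Mpo values, so these counts are not independent of each other.

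**Figure D3:**
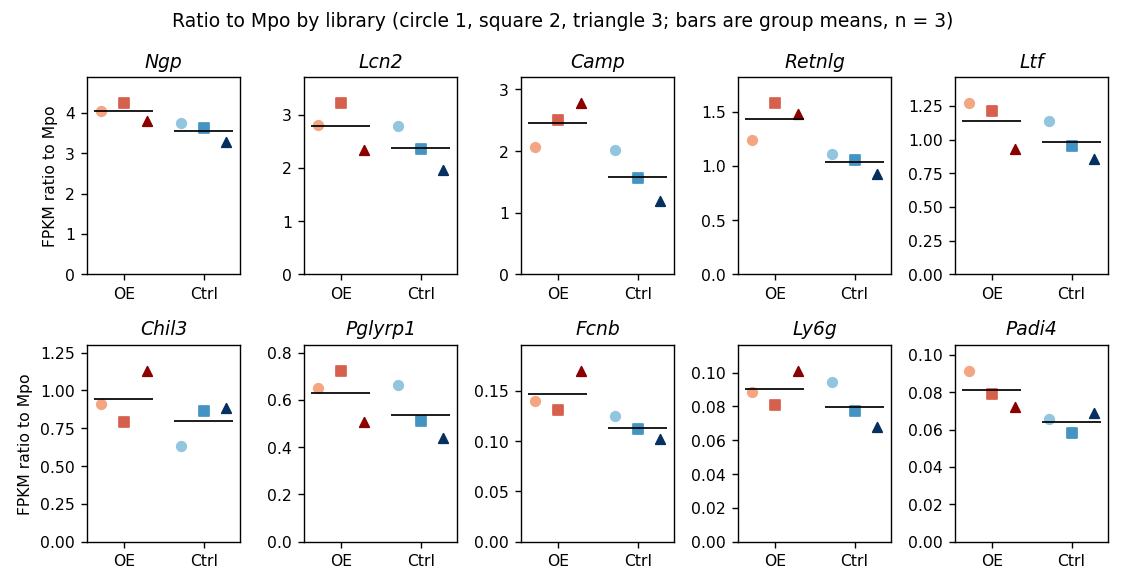
Ratio of each gene's FPKM to Mpo FPKM by library, from 0, with OE left of Ctrl; circles, squares and triangles are libraries 1, 2 and 3 and bars are group means (n = 3 each). Camp, Retnlg, Fcnb, Padi4 and Ngp show no overlap of the groups, and Ctrl 3 is the lowest point for 8 of the 10 genes.

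Camp had the largest mean difference in ratio to Mpo, with values of 2.07, 2.51 and 2.78 in OE 1, 2 and 3, against 2.01, 1.56 and 1.18 in the libraries labelled Ctrl 1, 2 and 3. The library labelled Ctrl 1 nearly met OE 1, and the other Ctrl libraries lay well below. The difference was 0.65 (SE 0.31; limma adjusted p = 0.103). Retnlg over Mpo was 1.24, 1.58 and 1.47 in OE 1, 2 and 3, against 1.11, 1.06 and 0.929 in the libraries labelled Ctrl 1, 2 and 3, again without overlap. Its difference was 0.47 (SE 0.29; limma adjusted p = 0.153).

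Fcnb over Mpo was 0.140, 0.131 and 0.170 in OE 1, 2 and 3, against 0.125, 0.112 and 0.102 in the libraries labelled Ctrl 1, 2 and 3 (difference 0.37, SE 0.27; limma adjusted p = 0.208). Padi4 over Mpo was 0.0916, 0.0793 and 0.0722 in OE 1, 2 and 3, against 0.0655, 0.0581 and 0.0689 in the libraries labelled Ctrl 1, 2 and 3 (difference 0.34, SE 0.28; limma adjusted p = 0.257). For both genes the nearest OE and Ctrl libraries were closer to each other than the OE libraries were among themselves. Ngp over Mpo was 4.05, 4.24 and 3.81 in OE 1, 2 and 3, against 3.74, 3.63 and 3.28 in the libraries labelled Ctrl 1, 2 and 3 (difference 0.18, SE 0.31; limma adjusted p = 0.567). OE 3 and the library labelled Ctrl 1 all but met.

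The other 5 ratios overlapped between groups. Ltf over Mpo was 1.27, 1.21 and 0.931 in OE 1, 2 and 3, against 1.14, 0.950 and 0.854 in the libraries labelled Ctrl 1, 2 and 3. Lcn2 over Mpo was 2.81, 3.22 and 2.34 in OE 1, 2 and 3, against 2.78, 2.35 and 1.96 in the libraries labelled Ctrl 1, 2 and 3. Pglyrp1 over Mpo was 0.650, 0.724 and 0.507 in OE 1, 2 and 3, against 0.662, 0.511 and 0.439 in the libraries labelled Ctrl 1, 2 and 3. In these 3 genes OE 3 was the lowest OE library, within the Ctrl range. Chil3 and Ly6g had their highest ratio in OE 3 instead. Chil3 over Mpo was 0.908, 0.793 and 1.13 in OE 1, 2 and 3, against 0.635, 0.867 and 0.885 in the libraries labelled Ctrl 1, 2 and 3. Ly6g over Mpo was 0.0884, 0.0810 and 0.101 in OE 1, 2 and 3, against 0.0946, 0.0772 and 0.0678 in the libraries labelled Ctrl 1, 2 and 3. The differences of these 5 ran from 0.19 to 0.25, with limma adjusted p from 0.416 to 0.520.

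The geometric mean of the 10 over Mpo was 0.691, 0.708 and 0.689 in OE 1, 2 and 3, against 0.621, 0.559 and 0.507 in the libraries labelled Ctrl 1, 2 and 3. The OE libraries were thus nearly equal in this ratio although their levels differed, OE 3 included. That depended on the denominator: OE 1, 2 and 3 were at 1.03, 0.971 and 0.969 over Elane, but 1.14, 0.977 and 1.47 over Prtn3. Over the mean of the 6 primary granule genes they were at 2.57, 2.47 and 2.98. Elane over Mpo showed no overlap either, at 0.671, 0.729 and 0.711 in OE 1, 2 and 3, against 0.605, 0.639 and 0.556 in the libraries labelled Ctrl 1, 2 and 3, although Elane belongs to the same granule as Mpo. All OE ratios to Mpo exceeded all Ctrl ratios for 66.5% of all genes. Without the library labelled Ctrl 1 and OE 3 together, only OE 1 and OE 2 stood against Ctrl 2 and Ctrl 3. The median of the 10 relative to Mpo was then 0.45, where all genes tested had a median of 0.51. Camp at 0.75 (limma adjusted p = 0.0268) and Pglyrp1 at 0.53 (limma adjusted p = 0.0400) passed, 2 of the 10, and 21.2% of all genes did. The 2 libraries left out are ones that stood out in these same data, so this count is a description. With all 6 libraries the limma adjusted p was 0.103 for Camp and 0.445 for Pglyrp1.

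The differences were smaller on other denominators of the same stage. Relative to Elane the median difference of the 10 was 0.01, with 6 of the 10 above 0, where all genes tested had a median of 0.58. Relative to Prtn3 the median of the 10 was 0.07, against 0.64 for all genes. Relative to the geometric mean of the 6 primary granule genes the median of the 10 was 0.09, against 0.66 for all genes. There only Retnlg, 1 of the 10, had all OE ratios above all Ctrl ratios, against 21.6% of all genes: 4.61, 5.52 and 6.38 in OE 1, 2 and 3, against 4.54, 4.27 and 4.30 in the libraries labelled Ctrl 1, 2 and 3. limma adjusted p-values on that denominator ran from 0.398 for Camp to 0.932 for Ly6g. A change of denominator shifts all 10 genes by the same amount, so their order cannot change. The difference of Camp, which fell least in level, was thus the largest on each. It was 0.65, 0.42, 0.48 and 0.50 relative to Mpo, Elane, Prtn3 and the mean of the 6.

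**Figure D4:**
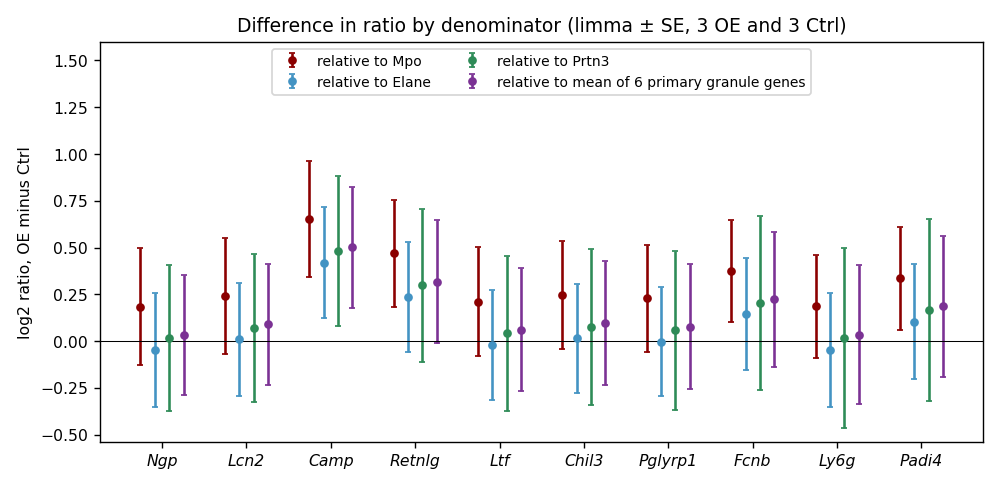
Difference in log2 ratio, OE minus Ctrl, with bars of 1 SE (limma, 3 OE and 3 Ctrl libraries), for each of the 10 genes relative to Mpo, Elane, Prtn3 and the mean of 6 primary granule genes. A change of denominator shifts all genes by the same amount, and Mpo has the difference furthest below 0 among the denominators. The points relative to Mpo therefore lie highest for every gene, and for most genes the other denominators sit near 0.

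Among the 10, the weakest likeness was between Camp and Chil3. Pearson's r of log2 levels over the 6 libraries, which share their scaling and the low OE 3, ran from 0.39 for that pair to 0.998 for Lcn2 and Pglyrp1, with a median of 0.934 over 45 pairs. Chil3 over Camp was 0.439, 0.317 and 0.407 in OE 1, 2 and 3, against 0.316, 0.556 and 0.748 in the libraries labelled Ctrl 1, 2 and 3. Ctrl 2 and Ctrl 3 were thus above all other libraries, and the library labelled Ctrl 1 was the lowest. Retnlg over Ltf was 0.976, 1.30 and 1.58 in OE 1, 2 and 3, against 0.974, 1.11 and 1.09 in the libraries labelled Ctrl 1, 2 and 3, while Lcn2 over Ltf stayed between 2.21 and 2.66 in all 6.

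The genes most like the mean pattern of the 10 were looked for among 2180 genes with a mean of at least 10 FPKM and an SD over libraries of at least 0.3 in log2. The nearest were S100a11 (r = 0.999), Cebpe (r = 0.999), Pgk1 (r = 0.999), R3hdm4 (r = 0.999), Arhgdib (r = 0.998) and Ddost (r = 0.998), over 6 libraries. Cebpe ranked 2, Ms4a3 7, Prtn3 15, Spi1 33, Elane 79 and Mpo 275, while S100a9 ranked 400, S100a8 510 and Mmp8 854. With 6 libraries and a single low one, many genes reach such an r, so the ranks describe these libraries only.

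Of the 26 further genes of later neutrophils, none was called by limma and all 26 differences were below 0, with a median of -0.47. OE 3 was the lowest library for 24 of the 26. For Ltb4r1, a leukotriene B4 receptor, Adam8, a surface protease, Csf3r, the G-CSF receptor, and Mmp8, neutrophil collagenase, all OE libraries were below all Ctrl libraries, 4 of the 26 against 8.97% of all genes. Ltb4r1 stood at 133, 157 and 73.4 FPKM in OE 1, 2 and 3, against 196, 217 and 169.7 FPKM in the libraries labelled Ctrl 1, 2 and 3 (difference -0.74, SE 0.29; limma adjusted p = 0.554). Mmp8 stood at 473, 468 and 318 FPKM in OE 1, 2 and 3, against 474, 574 and 660.0 FPKM in the libraries labelled Ctrl 1, 2 and 3 (difference -0.45, SE 0.24; limma adjusted p = 0.561). Mmp8 was highest in Ctrl 3, unlike the 10, none of which peaked there. Hdc, which encodes histidine decarboxylase, differed by -0.72 (SE 0.35; limma adjusted p = 0.557), and its groups overlapped.

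Mmp9, the gelatinase B gene, which osteoclasts also express, differed by -0.11 (SE 0.45), and Cxcr2, a chemokine receptor of mature neutrophils, by -0.72 (SE 0.45). Csf3r differed by -0.50 (SE 0.23) and Adam8 by -0.52 (SE 0.24; limma adjusted p = 0.554 for both). S100a8 and S100a9, which encode calprotectin, differed by -0.20 (SE 0.58) and -0.27 (SE 0.56). Relative to Mpo, S100a8 was 21.01, 24.1 and 18.0 in OE 1, 2 and 3, against 14.5, 13.7 and 11.8 in the libraries labelled Ctrl 1, 2 and 3. Every OE ratio thus exceeded every Ctrl ratio, as for 66.5% of all genes, without passing the test (limma adjusted p = 0.128).

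The stefin A genes, a cluster of cysteine protease inhibitors of mouse neutrophils, mostly spread more widely between libraries than the 10. Their sequences are close to each other, so the split of reads between them is uncertain. BC100530 stood at 283, 474 and 7.34 FPKM in OE 1, 2 and 3, against 327, 93.7 and 73.6 FPKM in the libraries labelled Ctrl 1, 2 and 3. Stfa1 followed it, at 171, 256 and 15.4 FPKM in OE 1, 2 and 3, against 224, 99.3 and 77.8 FPKM in the libraries labelled Ctrl 1, 2 and 3. Both genes were high in OE 1, OE 2 and the library labelled Ctrl 1 and lower in the rest, a grouping the 10 genes did not show. Stfa2 had the same order, at 100.3, 183 and 6.89 FPKM in OE 1, 2 and 3, against 138, 69.9 and 46.2 FPKM in the libraries labelled Ctrl 1, 2 and 3. Stfa2l1 was closer to the 10, at 159.7, 228 and 62.4 FPKM in OE 1, 2 and 3, against 204, 197 and 163 FPKM in the libraries labelled Ctrl 1, 2 and 3. None of the 5 was called (limma adjusted p 0.679 to 0.980).

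Of 9 transcription factors of granulocyte formation, 0 were called and 8 differences were below 0, with a median of -0.58. Cebpe, the factor for specific granule genes, stood at 182, 257 and 105 FPKM in OE 1, 2 and 3, against 283, 276 and 208 FPKM in the libraries labelled Ctrl 1, 2 and 3, with OE 2 between Ctrl 3 and Ctrl 2 as for Ltf (difference -0.57, SE 0.34; limma adjusted p = 0.570). For Cebpb and Cebpa, which encode C/EBP beta and alpha, and for Gfi1 and Klf5, all OE libraries were below all Ctrl libraries, 4 of the 9 against 8.97% of all genes. Cebpb was at 99.8, 130.0 and 100.01 FPKM in OE 1, 2 and 3, against 193, 199 and 162 FPKM in the libraries labelled Ctrl 1, 2 and 3, a difference of -0.75 (SE 0.18; limma adjusted p = 0.554). Cebpa was at 36.0, 43.6 and 39.6 FPKM in OE 1, 2 and 3, against 58.1, 70.0 and 55.9 FPKM in the libraries labelled Ctrl 1, 2 and 3, a difference of -0.61 (SE 0.15; limma adjusted p = 0.554). In Cebpb and Cebpa OE 3 was close to OE 1, whereas in all 10 granule and maturation genes OE 3 was the lowest library. Gfi1, a repressor needed for neutrophil formation, differed by -0.58 (SE 0.24), Spi1 by -0.78 (SE 0.36) and Klf5 by -0.59 (SE 0.28), while Runx1 differed by 0.28 (SE 0.29) and Myb, a factor of early progenitors, by -0.00 (SE 0.18).

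Relatives of the 10 genes ranged from listed at 0 to abundant. Ly6c2, a relative of Ly6g made by monocytes, stood above Ly6g, at 666 to 1515 FPKM over the 6 libraries, and differed by -0.52 (SE 0.30; limma adjusted p = 0.566). Ly6c1, another relative, ran from 41.3 to 263 FPKM, both ends in OE libraries. Chil4, a close relative of Chil3, was at 0.139 to 0.317 FPKM, and Pglyrp3 was listed at 0 in all 6 libraries. Retnla, of the resistin-like family, stood at 1.54, 2.81 and 4.37 FPKM in OE 1, 2 and 3, against 3.49, 0.806 and 1.52 FPKM in the libraries labelled Ctrl 1, 2 and 3. Fcna, the ficolin gene of macrophages, was highest in OE 3, where Fcnb was lowest: 6.27, 6.77 and 48.4 FPKM in OE 1, 2 and 3, against 8.57, 22.2 and 14.2 FPKM in the libraries labelled Ctrl 1, 2 and 3. Padi2 was likewise highest in OE 3, at 11.4 FPKM, and at 6.23 to 8.84 FPKM elsewhere. Chil1, which encodes a related chitinase-like protein, differed by -0.50 (SE 0.43; limma adjusted p = 0.667) and was lowest in OE 3 at 97.2 FPKM.

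Receptors for the proteins were also looked at. Lrp1, which takes up lactoferrin, differed by 0.29 (SE 0.31; limma adjusted p = 0.735). Slc22a17, reported as a lipocalin 2 receptor, stood at 9.35, 4.49 and 4.88 FPKM in OE 1, 2 and 3, against 6.77, 0.898 and 1.27 FPKM in the libraries labelled Ctrl 1, 2 and 3. The library labelled Ctrl 1 was within the OE range, and the difference was 1.11 (SE 0.55; limma adjusted p = 0.560). It became 1.74 without that library (limma adjusted p = 0.0302), a setting in which limma called 4.9% of all genes. Leaving out a Ctrl library that lies within the OE range favours such a call, so it is a description.

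**Figure D5:**
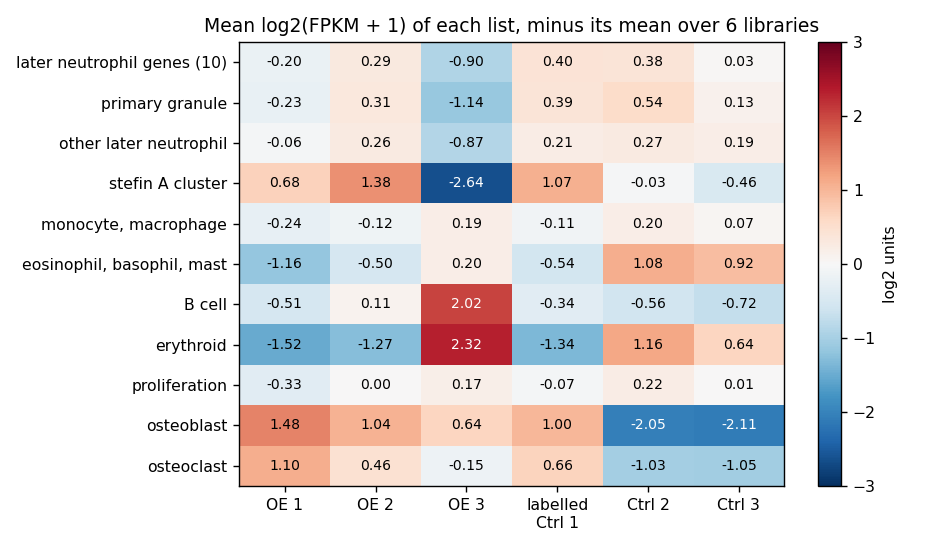
Mean log2(FPKM + 1) of each gene list in each library, minus the mean of that list over the 6 libraries, with OE left of Ctrl and colour running from blue (low) to red (high). The 10 later neutrophil genes and the primary granule genes are lowest in OE 3, where B cell and erythroid markers are highest.

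Markers of other cells moved with the libraries as well. The 8 B cell markers summed to 50.1, 90.8 and 412 FPKM in OE 1, 2 and 3, against 65.1, 67.1 and 52.8 FPKM in the libraries labelled Ctrl 1, 2 and 3, and all 8 were highest in OE 3. The 7 erythroid markers summed to 61.0, 71.8 and 1123 FPKM in OE 1, 2 and 3, against 68.1, 475 and 331 FPKM in the libraries labelled Ctrl 1, 2 and 3, and all 7 were highest in OE 3. OE 3, the library lowest in the 10 genes, was thus the highest in these lists, and their part in the result was not tested. The 11 monocyte and macrophage markers summed to 1359, 1821 and 1338 FPKM in OE 1, 2 and 3, against 1784, 2145 and 1737 FPKM in the libraries labelled Ctrl 1, 2 and 3. Ly6c2 was the largest part of that sum, at 871, 1307 and 666 FPKM in OE 1, 2 and 3, against 1268, 1515 and 1153 FPKM in the libraries labelled Ctrl 1, 2 and 3. The sum hides a split: 4 of the 11 markers, Ly6c2 among them, were lowest in OE 3, and 4 were highest there. The mean log2 level of the 11 stood 0.19 above its mean over the 6 libraries in OE 3 and 0.20 above it in Ctrl 2. No marker of these lists was listed at 0 in any library.

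Markers of other granulocytes followed another order of libraries. The 8 eosinophil, basophil and mast cell markers summed to 336, 787 and 1558 FPKM in OE 1, 2 and 3, against 779, 4046 and 3259 FPKM in the libraries labelled Ctrl 1, 2 and 3. Prg2, which encodes eosinophil major basic protein, held 264, 657 and 1339 FPKM in OE 1, 2 and 3, against 652, 3512 and 2758 FPKM in the libraries labelled Ctrl 1, 2 and 3. Ctrl 2 and Ctrl 3 were far above the rest, and OE 3 was the highest OE library, whereas it was the lowest in the 10 genes. Proliferation genes, which mark dividing precursors, had 10 members with a median difference of -0.14 and none called by limma, and their sum was 699, 890 and 1061 FPKM in OE 1, 2 and 3, against 844, 1065 and 919 FPKM in the libraries labelled Ctrl 1, 2 and 3.

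Bone cells varied along another axis. The 7 osteoclast markers, Mmp9 among them, summed to 3719, 2656 and 1299.8 FPKM in OE 1, 2 and 3, against 3163, 1030.5 and 993 FPKM in the libraries labelled Ctrl 1, 2 and 3. The library labelled Ctrl 1 sat with OE 1 and OE 2 in these and in the osteoblast markers, but among the highest in the 10 neutrophil genes. Without that library, limma called 4.9% of all genes, 597 of 12177 with 518 higher in OE. These held 7 of the 8 osteoblast markers and 0 of the 10 neutrophil genes. That library stood out by its Wnt7b and osteoblast marker levels, so leaving it out favours calls of osteoblast markers. The count is therefore a description and no test of them.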

How the data were processed

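RNA was measured in 6 libraries, grouped and numbered by the titles in the labels. The submitters' processing notes list TopHat2, Cufflinks, DESeq and mm10, with roles, versions, strand setting and the treatment of shared reads not given in the sources used here. FPKM were deposited by the authors, as the file headers name them; there were no counts, so the planned count test gave way to limma. Of 22824 rows, 21606 carry Ensembl identifiers and 21172 matched a GENCODE M21 symbol. A pseudocount of 1 FPKM was added, log2 taken, and 12177 genes reaching 1 FPKM in 3 or more libraries were fitted with limma 3.58.1 in R 4.3.3 (eBayes with trend). Benjamini-Hochberg adjustment covered every gene tested, and adjusted p under 0.05 was called. This log scale understates differences of low genes. The fit relative to Mpo used log2(FPKM + 1) minus that of Mpo. The limma code was tested on simulated data. Tables and plots used Python 3.11.15, numpy 2.4.6, pandas 2.3.3 and matplotlib 3.10.9. The 10 genes and 14 lists were chosen with earlier results of these data known.

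Genes named are the 10, the 6 primary granule genes, from each of 3 related neutrophil lists the 4 with the smallest p, a fixed set (Mmp8, Mmp9, Cxcr2, Cebpe, Gfi1, S100a8 and S100a9), relatives of the 10, the 6 nearest in pattern, and Wnt7b. The 2 most abundant genes of each other list could also be named, and few of them are. Klf5, Runx1 and Myb were named after their values were seen. Alternatives were another pseudocount, other filters, 2 scalings, limma without trend, array weights, a replicate block, other denominators and leaving out libraries. Promoter sequences are from RefSeq (GRCm38.p6). Listed genes with no matching symbol (Cebpd, Irf8, Ahsp, Oscar, Trf) were not analysed here.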

Additional observations from a re-analysis of the deposited data

How the results depend on the processing

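The 10 differences kept their sign under the other pseudocount, the filters, both scalings, limma without trend, array weights and the replicate block, and none was called. With each library left out in turn their median ran from -0.82 (OE 2 left out) to -0.19 (OE 3 left out), and without the library labelled Ctrl 1 and OE 3 together it was -0.11; Camp ran from -0.49 to 0.01 over the same settings, above 0 without OE 3, and was 0.19 without both. The count of all genes called was 0, but 1394 with array weights, 0 to 597 with 1 library left out (597 without the one labelled Ctrl 1) and 1388 without the library labelled Ctrl 1 and OE 3. Array weights relative to Mpo could not be fitted.

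Relative to Mpo, 1109 genes were called. The count was 0 at a pseudocount of 0.1, 449 at a filter of 5 FPKM, 724 without trend, 562 relative to Elane, 140 relative to Prtn3, 359 relative to the primary granule mean, 2576 without the library labelled Ctrl 1 and OE 3, and 0 (OE 3) to 9402 (OE 2) with 1 library left out. The median of the 10, 0.24, was 0.012, 0.074 and 0.093 on the other denominators, 0.45 without the library labelled Ctrl 1 and OE 3, and 0.22 to 0.36 with 1 library left out. Relative to Elane, Ltf was -0.020, Ngp -0.047, Pglyrp1 -0.0033 and Ly6g -0.046; Chil3 was -0.046 without the library labelled Ctrl 1 and OE 3. The causes were not tested. Depth is unknown and each group has 3 libraries, which limits precision.

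Same-numbered libraries correlated in their deviations at 0.442, 0.0866 and 0.311. OE 1 and the library labelled Ctrl 1 were each closest to the other, and Ctrl 3 was closest to OE 3. However, OE 2 was closest to the library labelled Ctrl 1, OE 3 to Ctrl 2, and Ctrl 2 to OE 3. Closeness thus followed the numbers only in part, and the numbers were not taken as pairs. With the replicate block, 0 genes were called in level (1797 at an unadjusted p under 0.05) and 3369 relative to Mpo, with none of the 10 among either.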
